A study of Mus musculus with 10 samples.

Results

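The genes described here are 56 splicing regulators of the mouse, measured in lumbar spinal cord. They are all protein-coding genes named Srsf with a number (11 genes) or with a name that starts with Hnrnp (20 genes), together with Celf1 to Celf6, Elavl1 to Elavl4, Mbnl1 to Mbnl3, Rbfox1 to Rbfox3, Ptbp1 to Ptbp3, Khdrbs1 to Khdrbs3, Nova1, Nova2 and Qk. Membership was set by gene names and not by measured values, but the families were chosen with earlier results of these data known. All 56 were among the 22024 gene identifiers of the count table, and all 56 were among the 15191 genes with enough reads to test. Mbnl3 met that minimum only through its counts in nontransgenic cord, where it was highest.

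The cords came from 10 female mice aged 3 months, each of which gave 1 library of polyA RNA. The M337V mice (5 animals, numbered 1, 2, 3, 7 and 9) carried a bacterial artificial chromosome with the human TARDBP gene bearing the M337V mutation, which is linked to amyotrophic lateral sclerosis. The WT mice (2 animals, numbered 8 and 10) had the same human gene without the mutation. In both, the human gene was placed in the Rosa26 locus of embryonic stem cells, under its own human sequence, and the lines were backcrossed to C57BL/6J for at least 3 generations. The NTg mice (3 animals, numbered 4, 5 and 6) are labelled nontransgenic C57BL/6, and controls were littermates of the same age. The library labelled NTg 4 goes against its label, since it holds human TARDBP reads at the level of the transgenic libraries. All 3 groups kept the mouse Tardbp gene. The labels do not say whether the animals sequenced had 1 or 2 copies of the transgene.

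TARDBP encodes TDP-43, a nuclear RNA-binding protein that is itself built like an hnRNP protein and that regulates splicing. Splice site choice depends on proteins that bind the pre-mRNA near an exon. SR proteins, the products of the Srsf genes, often favour inclusion of the exon they bind, whereas hnRNP proteins often repress it. Muscleblind (Mbnl), CELF, RBFOX, NOVA, PTB, STAR (Khdrbs, Qk) and Hu (Elavl) proteins act in a more tissue-restricted way, and many of them change the same exons in opposite directions. Quaking, the product of Qk, is abundant in glia, where it is known for its part in processing and transport of myelin transcripts.

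Mbnl2 rose in both transgenic groups, whereas its paralog Mbnl3 was near the limit of detection. The bases just upstream of the RefSeq start of each are shown side by side. Both stretches are the 250 bases before the transcription start in RefSeq (build GRCm38.p6), written 5′ to 3′ on the strand of the gene. The Mbnl2 stretch is chr14:120275419-120275668 on the plus strand and ends just before the GENCODE gene begins. The Mbnl3 stretch is chrX:51205991-51206240 on the minus strand. It lies within the GENCODE gene (chrX:51117269-51206532), whose start is further upstream, so the stretches are not like for like. The GENCODE annotation places no exon in either. Capitals mark GGGCGG (or CCGCCC) and CCAAT (or ATTGG), searched on both strands together with TATAAA (or TTTATA).
Mbnl2: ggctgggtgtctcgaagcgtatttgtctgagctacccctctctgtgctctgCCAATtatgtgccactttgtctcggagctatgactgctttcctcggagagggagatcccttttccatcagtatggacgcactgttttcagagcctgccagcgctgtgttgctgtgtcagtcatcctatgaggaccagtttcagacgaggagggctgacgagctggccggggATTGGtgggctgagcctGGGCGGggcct
Mbnl3: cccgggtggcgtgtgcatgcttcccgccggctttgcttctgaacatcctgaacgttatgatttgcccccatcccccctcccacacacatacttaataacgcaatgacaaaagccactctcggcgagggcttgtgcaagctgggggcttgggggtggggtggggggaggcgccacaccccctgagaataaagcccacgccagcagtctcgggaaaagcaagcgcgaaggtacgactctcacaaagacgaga
The Mbnl2 stretch held 1 GGGCGG and 2 CCAAT and was 57.2% G and C. The Mbnl3 stretch held 0 matches to the 3 motifs and was 59.2% G and C. GGGCGG occurred in 32.7%, CCAAT in 33.8% and TATAAA in 12.4% of 32851 such stretches in the mouse genome, whose median G and C content was 52.4%, so each motif is common and its presence is a description only.

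Levels of different genes were set side by side per length, averaged over all 10 libraries. The unit was counts scaled to library size (CPM) per kilobase of annotated exon. All annotated exons of a gene were counted, which can far exceed its longest transcript (25884 against 8856 bases for Celf2). Ranks and family sums depend on that choice of length. Qk was the most abundant of the 56 at 104.7 CPM per kb. Hnrnpa1 (81.2), Hnrnpa2b1 (78.3), Srsf5 (70.7), Hnrnpk (63.8) and Rbfox1 (63.0 CPM per kb) came next. The lowest were Mbnl3 at 0.0513, Khdrbs2 at 1.05 and Celf3 at 2.32 CPM per kb. Summed over their members, the Hnrnp genes held 730.5, the Srsf genes 309.9, the Rbfox genes 116 and the Elavl genes 113 CPM per kb. Within families the spread was wide. Srsf genes ran from 5.65 CPM per kb for Srsf12 to 70.7 for Srsf5. Celf4 stood at 30.1 CPM per kb and Elavl3, the most abundant Hu gene, at 52.5.

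**Figure D1:**
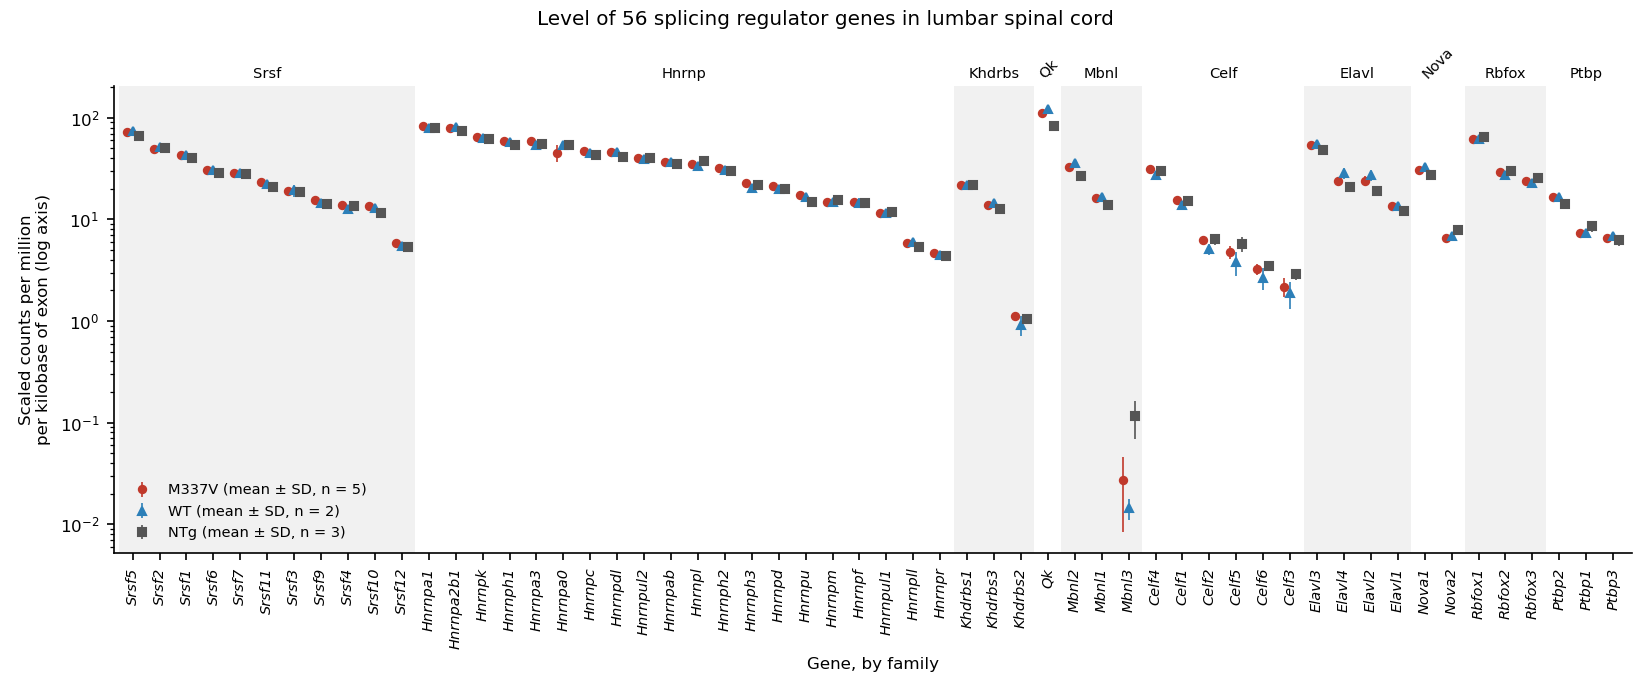
Mean level of each gene in M337V, WT and NTg cord on a log axis, in scaled CPM per kilobase of exon, with bars for the SD, grouped by family. Group means of most genes nearly coincide, while Mbnl3 lies far below the rest and Qk stands highest.

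The regulators varied little from library to library. Their median coefficient of variation over the 10 libraries was 6.47%, against 9.67% for all 15191 genes tested. These sets were not matched for level, and the part of abundance in this contrast was not tested. The steadiest was Hnrnpul2 (2.54%), a nuclear matrix-associated hnRNP, and the most variable was Mbnl3 (100.7%), followed by Celf3 (23.6%), Celf5 (21.5%) and Elavl2 (16.4%).

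Library totals were 18724888 to 19571914 counts in M337V, 19424118 to 20932246 in WT and 19948913 to 21041474 in NTg. Human TARDBP was at 116 to 141 scaled CPM in M337V and 114 to 127 in WT. In NTg it had 1 count in animal 5 and 4 counts in animal 6, but 2415 counts (118 CPM) in the library labelled NTg 4. That library stayed in its labelled group, and results without it are given beside the calls that depend on it. Cell type markers moved with the groups too. The sum of 12 oligodendrocyte markers was 32597 to 40042 scaled CPM in M337V, 35501 to 39341 in WT and 24214 to 28960 in NTg, and 7 of the 12 were higher in M337V and 8 of the 12 in WT than in NTg. The sum of 16 neuron markers overlapped (11584 to 13608 in M337V, 12804 to 14066 in WT, 11701 to 13000 in NTg), with 0 of 16 past the threshold in either comparison. Sums of 6 Schwann cell markers (304 to 1687 in M337V, 197 to 389.8 in WT, 543 to 2321 in NTg) and 7 skeletal muscle markers (23.2 to 147, 15.2 to 421 and 121 to 818) varied more within groups. Sums of 11 posterior Hox genes were 38.8 to 166 in M337V, 12.6 to 219 in WT and 174 to 224 in NTg. Sums of 5 neutrophil markers were 44.1 to 118, 24.3 to 82.3 and 132 to 448 CPM. Sums of 8 astrocyte markers (8410 to 10605 in M337V, 9625 to 10196 in WT, 8322 to 9041 in NTg) and 8 microglia markers (524 to 555, 512 to 543 and 406 to 494) were also at or above the NTg range, with 1 and 2 markers higher in M337V. No marker was at 0 in all libraries.

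Against NTg cord, M337V cord had more Qk, Mbnl2, Elavl2 and Mbnl1 RNA. These 4 genes and Mbnl3, which was lower, made up the 5 of 56 (8.93%) at a Benjamini-Hochberg adjusted p below 0.05 in edgeR's quasi-likelihood test. Mbnl3 entered the test only through the group where it is high, so its pass supports nothing, and with a mean of at least 1 CPM asked of every group the count was 4. Of all genes tested, 4.29% passed in either direction, 2.67% higher and 1.61% lower. The other 51 did not pass, including all 11 Srsf and all 20 Hnrnp genes. Of the 56 log2 differences 40 were positive, with a median of 0.08, against −0.01 over all genes tested.

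Qk (chr17:10202601-10319854 in GRCm38) had the smallest p of the 56. Its scaled CPM were 1495, 1666, 1656, 1640 and 1485 in M337V 1, 2, 3, 7 and 9, and 1255, 1162 and 1096 in NTg 4, 5 and 6. Every M337V library was above every NTg library, and NTg 4, which holds human TARDBP, was the highest of its group. The log2 difference was 0.44 ± 0.063 (SE, adjusted p = 0.0122 by edgeR). Qk is a gene of glia, and the oligodendrocyte marker sum, whose libraries did not overlap between M337V and NTg either, moved with it. The part of cell composition in the Qk difference was not tested. In whole tissue, a larger share of cells of a type and more RNA per cell cannot be told apart. Qk passed on leaving out NTg 4 (0.50, adjusted p = 0.0209). It did not on leaving out NTg 6 (0.39, adjusted p = 0.1001) or the 3 libraries M337V 1 to 3 (0.42, adjusted p = 0.152).

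Muscleblind proteins drive the adult pattern of splicing in muscle and brain. Mbnl1 lies at chr3:60472830-60629750, Mbnl2 at chr14:120275669-120431697 and Mbnl3 at chrX:51117269-51206532. Mbnl2 had 362, 386, 439.6, 402 and 378 scaled CPM in M337V 1, 2, 3, 7 and 9, and 334, 325 and 307 in NTg 4, 5 and 6. Mbnl1 had 285, 303, 334, 300.4 and 289.5 in the same M337V libraries and 260.5, 260.2 and 249.7 in the NTg libraries. For both genes the lowest M337V library, animal 1, lay above all 3 NTg libraries. Mbnl2 rose by a log2 difference of 0.29 ± 0.063 (SE, adjusted p = 0.0335) and Mbnl1 by 0.24 ± 0.054 (SE, adjusted p = 0.0382) in edgeR. Removal of trends over GC content and transcript length left Mbnl2 at 0.32 (adjusted p = 0.0486) and took Mbnl1 to 0.10 (adjusted p = 0.211). Both calls ended on leaving out M337V 2 (adjusted p = 0.0713 for Mbnl2, 0.0846 for Mbnl1), M337V 3 (0.05002 and 0.0513), NTg 4 (0.0584 and 0.0762), NTg 5 (0.0722 and 0.0781), NTg 6 (0.180 and 0.188) or M337V 1 to 3 (0.179 and 0.202). The Mbnl1 call also ended without both NTg 4 and WT 8, a fit that leaves a lone WT library.

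Mbnl3, which in mouse muscle precursors is known as an inhibitor of differentiation, was scarcely detected. It had 2, 2, 3, 9 and 7 counts in M337V 1, 2, 3, 7 and 9, and 29, 12 and 22 counts in NTg 4, 5 and 6. The groups did not overlap, and the gap between M337V 7 and NTg 5 was 3 counts. Summed counts were 23 in M337V and 63 in NTg, a ratio of scaled counts of 0.237 (95% interval for counting error only, 0.140 to 0.387). Because the gene was kept for testing through its NTg counts alone, these values are a description. Its fitted log2 difference in edgeR was −2.05, and −1.27 without M337V 1 to 3. Neutrophil marker sums were also lower in all M337V than in all NTg libraries, and skeletal muscle sums in 4 of 5 M337V libraries. WT 8, with 421 CPM of muscle markers, had 2 Mbnl3 counts. The part of these cells in the Mbnl3 difference was not tested.

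All 4 Hu genes had positive log2 differences in M337V against NTg, and Elavl2 passed. Elavl2 (chr4:91250763-91400785) encodes HuB, a neuronal protein that stabilises and alters splicing of AU-rich transcripts. It had 182, 211, 229.7, 192 and 187 scaled CPM in M337V 1, 2, 3, 7 and 9, and 159, 160.2 and 150.4 in NTg 4, 5 and 6. The M337V libraries were all above the NTg libraries, with animals 2 and 3 highest. The log2 difference was 0.36 ± 0.081 (SE, adjusted p = 0.0380 by edgeR), and it was 0.19 (adjusted p = 0.125) after removal of GC and length trends. It missed the threshold without M337V 2 (adjusted p = 0.0922), M337V 3 (0.0538), NTg 4 (0.0787), NTg 5 (0.0756), NTg 6 (0.188) or M337V 1 to 3 (0.223). Elavl2 also missed it without both NTg 4 and WT 8, a fit that leaves a lone WT library. The ubiquitous Elavl1 (log2 difference 0.14, adjusted p = 0.0826), the neuronal Elavl3 (0.14, 0.126) and the neuronal Elavl4 (0.22, 0.133) did not pass. Elavl1 did pass with the compared groups alone, under limma-voom and under DESeq2.

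**Figure D2:**
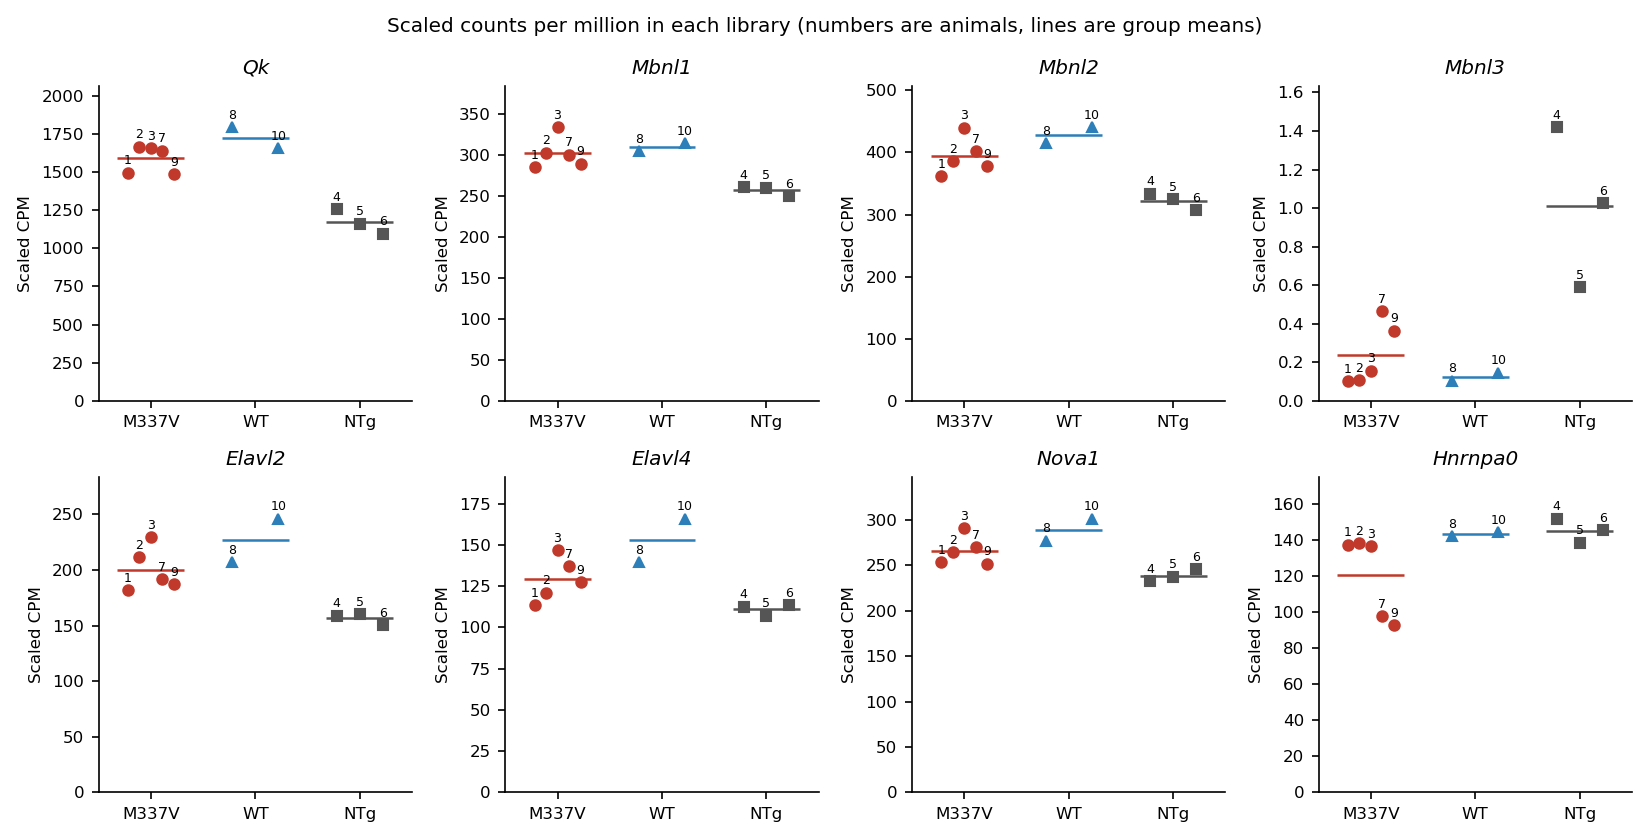
Scaled CPM of the 7 genes past the threshold in either comparison with NTg and of Hnrnpa0, in each library of M337V, WT and NTg; numbers are animals, horizontal lines are group means, and every axis starts at 0. Qk, Mbnl1, Mbnl2 and Elavl2 lie higher in all M337V and WT libraries than in all NTg libraries, Mbnl3 (a few counts a library) lies lower, and Hnrnpa0 splits the M337V group.

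In the other families the gene with the smallest p was looked at by library. Nova1 and Nova2 encode neuronal proteins that bind clusters of YCAY and set splicing of synaptic transcripts. Nova2 had 59.5, 53.1, 53.8, 57.7 and 53.6 scaled CPM in M337V 1, 2, 3, 7 and 9, and 67.9, 62.4 and 66.0 in NTg 4, 5 and 6. Its log2 difference was −0.24 ± 0.063 (SE, adjusted p = 0.0558), with no overlap of libraries, while Nova1 was at 0.16 ± 0.055 (adjusted p = 0.108). Under DESeq2 both genes passed, Nova2 at −0.23 (adjusted p = 0.0203) and Nova1 at 0.16 (0.0443). Among other alternatives, Nova2 also passed with the compared groups alone, under limma-voom and with robust dispersions. Nova1 passed under DESeq2 only. After removal of GC and length trends in edgeR Nova2 was at −0.11 (adjusted p = 0.202) and Nova1 at 0.007 (0.964).

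Ptbp2, the polypyrimidine tract-binding protein of neurons, had 150.3, 161, 166, 151 and 138 scaled CPM in M337V 1, 2, 3, 7 and 9, and 137, 129.9 and 124 in NTg 4, 5 and 6. M337V 9 was just above NTg 4, so the groups touched without overlap. Its log2 difference was 0.24 ± 0.064 (SE, adjusted p = 0.0574). It was 0.011 (adjusted p = 0.919) after removal of GC and length trends, and it passed under 6 other alternatives, with the compared groups alone (0.0433), limma-voom (0.0316), DESeq2 (0.00859), robust dispersions (0.0490), without M337V 9 (0.0346) and without M337V 7 and 9 (0.0256). Ptbp1, the paralog of non-neuronal cells and progenitors, was at −0.22 ± 0.082 (SE, adjusted p = 0.125). Ptbp3 was at 0.06.

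Hnrnpu, a nuclear scaffold protein, had 207, 209, 216, 192 and 179 scaled CPM in M337V 1, 2, 3, 7 and 9, and 182, 169 and 160.1 in NTg 4, 5 and 6. M337V 9 lay below NTg 4, so the groups overlapped, and the log2 difference was 0.24 ± 0.066 (SE, adjusted p = 0.0634). Srsf10, an SR protein that acts as a repressor when dephosphorylated, had 90.4, 99.7, 99.4, 84.8 and 97.2 scaled CPM in the M337V libraries and 81.7, 81.1 and 82.5 in the NTg libraries. Its log2 difference was 0.21 ± 0.059 (SE, adjusted p = 0.0653) with all M337V libraries above. After removal of GC and length trends Hnrnpu was at 0.13 (adjusted p = 0.290) and Srsf10 at 0.09 (0.366). Both passed under limma-voom (0.0338 and 0.0417), DESeq2 (0.0106 and 0.0168) and without M337V 7 and 9 (0.0198 and 0.0342), as did Hnrnpu without M337V 9 (0.0354) and Srsf10 without M337V 7 (0.0348). The remaining Srsf genes lay between −0.03 and 0.16 and the Hnrnp genes between −0.27 and 0.24 on the log2 scale.

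Celf3, a neuron-enriched CELF gene of low level, had 14.4, 14.3, 9.04, 11.7 and 10.1 scaled CPM in M337V 1, 2, 3, 7 and 9, and 17.5, 14.0 and 15.6 in NTg 4, 5 and 6, a log2 difference of −0.40 ± 0.170 (SE, adjusted p = 0.175). The 6 Celf genes ran from −0.40 to 0.05 with 2 positive. Rbfox3, which encodes the neuronal nuclear antigen NeuN, was at −0.10 ± 0.052 (adjusted p = 0.241), with 148, 135, 129.7, 143 and 133 scaled CPM in M337V against 146, 143 and 155 in NTg. Rbfox1 (−0.05) and Rbfox2 (−0.04) were closer to 0. Khdrbs3, a STAR protein of neurons, was at 0.12 ± 0.053 (adjusted p = 0.201), with 46.8, 52.8, 51.2, 49.6 and 51.2 in M337V against 46.2, 47.9 and 45.2 in NTg. Khdrbs1 was at −0.01 and Khdrbs2 at 0.10.

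At an unadjusted p below 0.05 edgeR gave 22 of the 56 regulators, against 24.5% of all genes tested. Libraries did not overlap for 11 genes with M337V above NTg (9.51% of all genes tested) and 3 with M337V below (8.61% of all genes).

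Hnrnpa0, named here after its values were seen, split the M337V group. This hnRNP binds AU-rich elements. M337V 1, 2 and 3 had 138, 138 and 137 scaled CPM, whereas M337V 7 had 97.8 and M337V 9 had 93.0. The WT libraries had 142 and 144 and the NTg libraries 152, 138 and 145, so animals 7 and 9 lay below all others. M337V 1 to 3 carry the library names TDP_10 to TDP_12, and M337V 7 and 9 stand among TDP_5 to TDP_8 beside the WT libraries. The log2 difference from NTg was −0.27 ± 0.127 (SE, adjusted p = 0.219) over all libraries. It was −0.60 (adjusted p = 0.0263) on leaving out animals 1 to 3 of M337V and −0.07 on leaving out animals 7 and 9. Because the gene was picked for this split, both values are a description and the pass supports nothing. The labels give no batch, and whether the library order has a part in this split was not tested.

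WT cord had more RNA than NTg cord of the same 4 genes, Qk, Mbnl2, Elavl2 and Mbnl1, and of Elavl4 and Nova1. With Mbnl3, which was lower and again entered only through NTg, 7 of the 56 genes (12.5%) had an adjusted p below 0.05, and 6 did with a mean of at least 1 CPM asked of every group. The share over all genes tested was 5.64%, with 3.59% higher and 2.05% lower. The comparison uses the same NTg libraries as that of M337V with NTg, so a shared shift of those 3 libraries would appear in both. The median log2 difference was 0.02 over the regulators and −0.02 over all genes tested, with 33 of 56 positive. The sign of that median turned without WT 10 (−0.01) and after removal of GC and length trends (−0.05).

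Qk had 1794 and 1657 scaled CPM in WT 8 and 10, against 1255, 1162 and 1096 in NTg 4, 5 and 6. The log2 difference was 0.56 ± 0.077 (SE, adjusted p = 0.00957 by edgeR). It passed under each alternative tried for this comparison, among them leaving out NTg 6 (0.51, adjusted p = 0.0470) and both NTg 4 and WT 8 (0.56, adjusted p = 0.0307). Oligodendrocyte markers were again higher, by a median log2 difference of 0.46 over the 12, and their part was not tested.

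Mbnl2 had 414 and 441 scaled CPM in WT, a log2 difference of 0.41 ± 0.077 (SE, adjusted p = 0.0183), and Mbnl1 had 305 and 314, a difference of 0.27 ± 0.067 (SE, adjusted p = 0.0392). The NTg values are those given above, and both WT libraries exceeded them. Mbnl3 had 2 and 3 counts in WT, a summed 5 against 63 in NTg, with a ratio of scaled counts of 0.125 (95% interval for counting error only, 0.0391 to 0.306). Its fitted log2 difference of −2.94 is a description, as above. Mbnl2 lost its call without WT 10 (adjusted p = 0.0787, and likewise below), NTg 6 (0.0760) or both NTg 4 and WT 8 (0.0586). Mbnl1 lost its call with the compared groups alone and without M337V 2 (0.0538), NTg 4 (0.0770), NTg 5 (0.0694) or NTg 6 (0.119). It also lost it without WT 8, WT 10, or both NTg 4 and WT 8, fits that leave a lone WT library. Mbnl1 was at 0.10 (0.303) after removal of GC and length trends and at 0.27 (0.0769) under limma-voom.

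All 4 Hu genes had both WT libraries above all NTg libraries, as did 19.6% of all genes tested. Elavl2 had 207 and 246 scaled CPM in WT, a log2 difference of 0.53 ± 0.10 (SE, adjusted p = 0.0183). Elavl4 (chr4:110203722-110351909), which encodes the neuronal protein HuD, had 139.6 and 166 in WT, against 113, 107 and 114 in NTg 4, 5 and 6, a log2 difference of 0.46 ± 0.102 (SE, adjusted p = 0.0286). WT 10 was the higher of the pair for both genes. Elavl3 (0.18, adjusted p = 0.102) and Elavl1 (0.16, 0.0930) did not pass in edgeR, whereas DESeq2 called both higher. Elavl2 lost its call without WT 10 (adjusted p = 0.0914) or NTg 6 (0.0748). Elavl4 lost its call without NTg 4 (adjusted p = 0.0626), NTg 5 (0.0634) or NTg 6 (0.0811). It also lost it without WT 10 (log2 difference 0.33) or both NTg 4 and WT 8, fits that leave a lone WT library. Elavl4 had an adjusted p of 0.0597 under limma-voom. Its log2 difference was 0.27 (0.122) after removal of GC and length trends.

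Nova1 (chr12:46694517-46818929) had 277 and 301 scaled CPM in WT, against 232, 238 and 246 in NTg, a log2 difference of 0.28 ± 0.068 (SE, adjusted p = 0.0385). The call ended with the compared groups alone. It also ended without M337V 2 (adjusted p = 0.0528), NTg 4 (0.0953), NTg 5 (0.0770) or NTg 6 (0.0911). The same held without WT 8, WT 10, or both NTg 4 and WT 8, fits that leave a lone WT library. The adjusted p was 0.0813 under limma-voom, and the difference was 0.08 (0.530) after removal of GC and length trends. Nova2 was at −0.20 ± 0.080 (SE, adjusted p = 0.153), with 61.5 and 52.9 scaled CPM in WT.

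**Figure D3:**
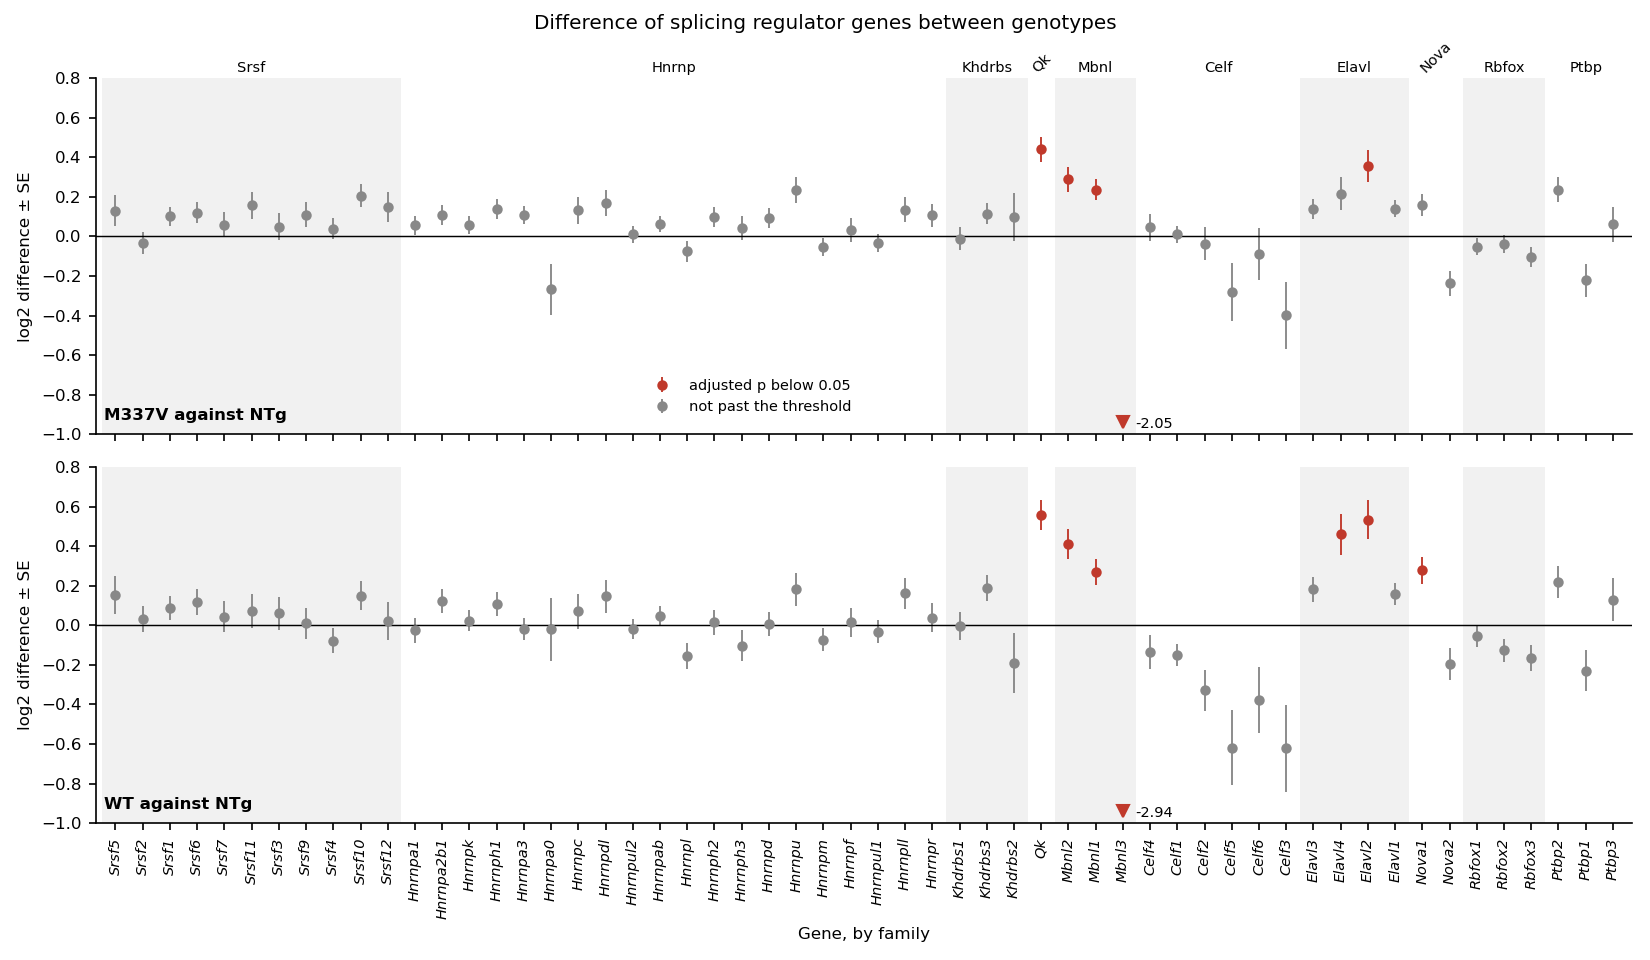
log2 difference (± SE) of each of the 56 genes in M337V against NTg (upper panel) and WT against NTg (lower panel), by family, from edgeR; red marks an adjusted p below 0.05, and the triangles mark Mbnl3, whose values (−2.05 and −2.94) lie below the axis. Srsf and Hnrnp genes cluster near 0, Elavl genes lie above it, and in the WT panel the 6 Celf genes lie below it.

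CELF proteins often oppose muscleblind proteins at the same exons. All 6 Celf genes had negative log2 differences in WT, with a median of −0.35, and 4 had both WT libraries below all NTg libraries (22.1% of all genes tested did), but none passed the threshold, and the smallest adjusted p was that of Celf5. Celf5 had 29.9 and 20.4 scaled CPM in WT, against 46.2, 34.2 and 35.2 in NTg (log2 difference −0.62 ± 0.189, adjusted p = 0.0718 by edgeR, 0.0164 by DESeq2). It was −0.37 (adjusted p = 0.359) without WT 10, −0.46 (0.192) without NTg 4, −0.92 (0.0551) without WT 8 and −0.51 (0.135) after removal of GC and length trends. The more abundant Celf2 was at −0.33 ± 0.104 (SE, adjusted p = 0.0803), and DESeq2 called it lower as well. In both, WT 10 was the lowest of the 10 libraries. All 3 Rbfox genes were also negative (−0.06 to −0.17) without passing, with Rbfox3 at 133 and 131 scaled CPM in WT.

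Of the other families, Ptbp2 had 146 and 157 scaled CPM in WT (log2 difference 0.22, adjusted p = 0.1104), and Khdrbs3 had 54.1 and 51.6 (0.19, adjusted p = 0.103). Hnrnpl, which binds CA repeats, had the smallest p of the Hnrnp genes, with 209.5 and 189.9 in WT against 233, 216 and 218 in NTg (−0.15, adjusted p = 0.169). Srsf10 had 88.7 and 92.8 in WT (0.15, adjusted p = 0.221). All 11 Srsf and all 20 Hnrnp genes stayed short of the threshold. At an unadjusted p below 0.05 edgeR gave 22 of the 56, against 25.3% of all genes. Both WT libraries were above all NTg libraries for 17 of the 56 (19.6% of all genes tested) and below for 12 (22.1% of all genes tested).

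Between M337V and WT cord, which the design describes as isogenic apart from the mutation, 0 of 56 regulators and 0% of all genes tested passed in edgeR. At an unadjusted p below 0.05 edgeR gave 5 of the 56, against 6.66% of all genes (1012 genes). DESeq2 called 30 genes and limma-voom 0, with 0 regulators in either. The 5 were Celf1 (log2 difference 0.16, 95% interval 0.05 to 0.27), Celf2 (0.29, 0.08 to 0.50), Elavl4 (−0.24, −0.44 to −0.04), Hnrnpa3 (0.13, 0.01 to 0.24) and Celf4 (0.18, 0.01 to 0.36). Their adjusted p ran from 0.630 to 0.743. Without WT 10 Elavl4 was at −0.11 and Celf2 at 0.17, and without WT 8 Celf4 was at 0.11 and Hnrnpa3 at 0.08, while Celf1 stayed between 0.14 and 0.17 on leaving out each library.

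Libraries did not overlap for 6 regulators with M337V above WT (4.85% of all genes tested) and 1 with M337V below, Hnrnpa0 (4.65%). Celf1 had 129.8, 131, 125, 127 and 136 scaled CPM in M337V 1, 2, 3, 7 and 9, and 116 in each WT library, with no overlap. Celf2 had 158, 161, 150.3, 178 and 164 in M337V and 144 and 121 in WT. All 6 Celf genes were higher in M337V than in WT, with a median log2 difference of 0.26, and all 4 Elavl genes were lower, from −0.24 to −0.02, none of them past the threshold. For the genes called against NTg, the log2 differences between M337V and WT were −0.12 (95% interval −0.28 to 0.04) for Qk, −0.12 (−0.28 to 0.04) for Mbnl2, −0.03 (−0.17 to 0.10) for Mbnl1, −0.18 (−0.38 to 0.02) for Elavl2 and −0.12 (−0.26 to 0.02) for Nova1. Mbnl3 was at 0.89 (−0.81 to 2.601), an interval that admits either direction. With 2 WT libraries these intervals are wide, and a missed threshold does not show that the groups have equal levels.

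Against NTg, a regulator's log2 difference tended to fall as the GC content of its longest annotated transcript rose. The same held over all genes. Over the 56 genes Spearman's rho between GC content and the log2 difference was −0.61 for M337V against NTg and −0.55 for WT against NTg, and over 15149 genes tested it was −0.45 and −0.44. These are descriptions across genes of the same libraries, and genes are not independent replicates. Of the 14 regulators above the median GC content of all genes (49.9%), 11 had a negative log2 difference in M337V against NTg, with a median of −0.08. Of the 42 below it, 37 had a positive one, with a median of 0.11. Over all genes, the decile with the lowest GC content (39.7%) had a median of 0.15 and the decile with the highest (59.8%) had −0.12. Qk and Elavl2, at 41.1% and 38.5% GC, lay above the medians of all genes at like GC content. So did Mbnl2 at 49.3% and Mbnl1 at 39.7%. In WT against NTg, Elavl4 (0.46) and Nova1 (0.28) lay above the median of the decile with the lowest GC content (0.18) too. Between M337V and WT rho was 0.17.

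**Figure D4:**
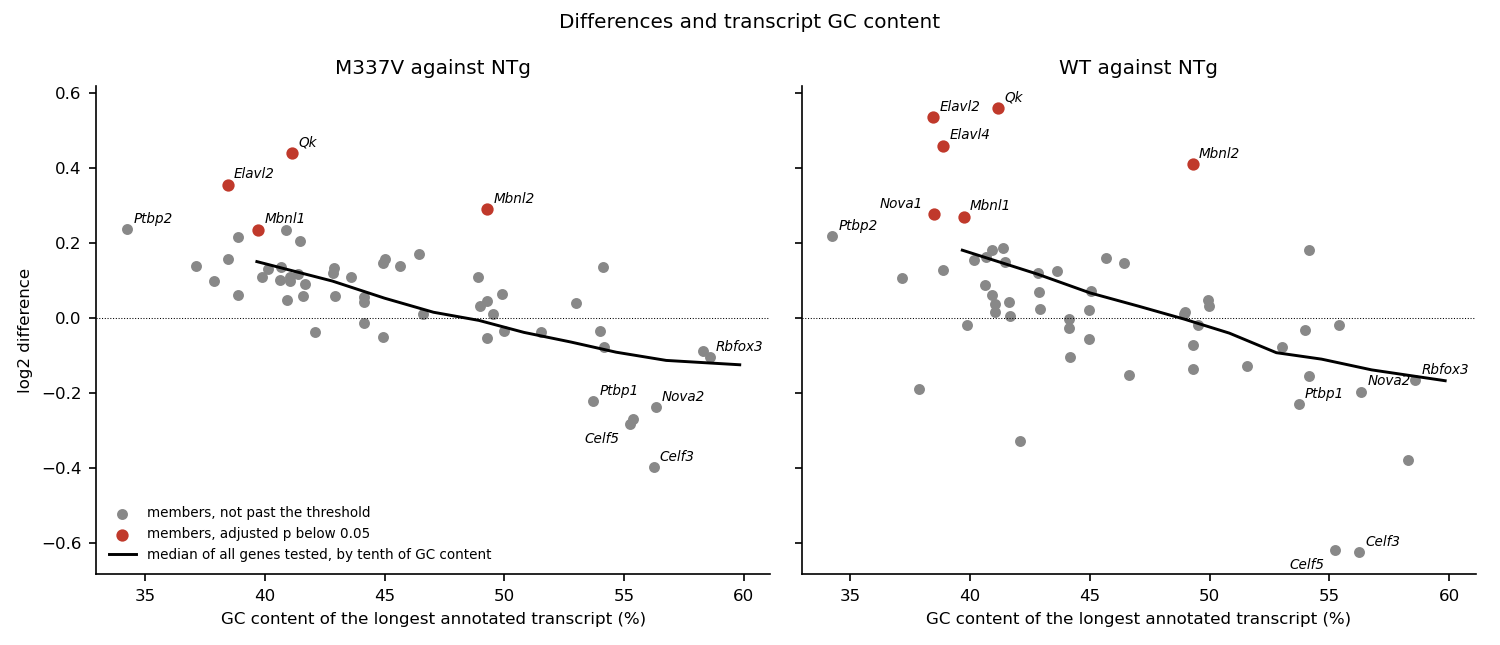
log2 difference of each regulator (points, red where adjusted p is below 0.05) against the GC content of its longest transcript in percent, for M337V against NTg (left) and WT against NTg (right), with the median of all genes tested by decile of GC content as a line. Mbnl3, far below the axis, is not drawn. The points follow the line downwards, with Qk, Elavl2, Mbnl2 and Mbnl1 above it in both panels. Elavl4 and Nova1, called in WT, lie above its left end in the right panel.

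With the trends over GC content and length taken out of each library, the median log2 difference of the 56 became 0.01 for M337V against NTg and −0.05 for WT against NTg. Qk remained at 0.34 (adjusted p = 0.0255) and 0.42 (adjusted p = 0.0144). Elavl3, at 54.1% GC, then passed in both comparisons, and Celf2 passed as lower in WT. The labels give an RNA integrity number above 8 for every extraction and no value per library, and the part of RNA quality in the GC trend was not tested.

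Splicing partners of these families were counted from 4 lists. Of 10 genes for the kinases and the import receptor of SR proteins, Clk4 was called in M337V against NTg. This kinase phosphorylates SR proteins, and it stood at 118 ± 5.77 scaled CPM in M337V (SD, n = 5), 121 ± 0.656 in WT (SD, n = 2) and 104 ± 1.495 in NTg (SD, n = 3). Its log2 difference was 0.19 ± 0.047 (SE, adjusted p = 0.0466) in M337V and 0.22 (adjusted p = 0.0529) in WT. Of 15 SR-related and exon-junction genes, Rbm8a rose. It encodes the exon-junction protein Y14 and averaged 68.2 ± 3.86 scaled CPM in M337V, 72.3 ± 10.1 in WT and 50.3 ± 6.82 in NTg. Its log2 difference was 0.44 ± 0.091 (SE, adjusted p = 0.0287) in M337V and 0.52 ± 0.111 (SE, adjusted p = 0.0246) in WT.

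Among 35 core spliceosome genes 0 were called in M337V against NTg, with a median log2 difference of −0.07. In WT against NTg 1 was lower, the Sm ring gene Snrpb (35.0 ± 2.16 scaled CPM in WT against 43.2 ± 2.91 in NTg, log2 difference −0.31, adjusted p = 0.0439). Among 32 other splicing regulators tested, Tial1, a relative of the stress granule protein TIA1, rose in M337V (164 ± 12.6 against 132 ± 7.24 scaled CPM in NTg, log2 difference 0.32, adjusted p = 0.0290). It averaged 155 ± 5.25 scaled CPM in WT, where it was not called. Msi2, a musashi gene of glia and progenitors, rose in WT (231 ± 13.9 against 175 ± 5.83 scaled CPM in NTg, log2 difference 0.40, adjusted p = 0.0198). In M337V it averaged 206 ± 15.6 scaled CPM, just short of the threshold (log2 difference 0.23, adjusted p = 0.0582 by edgeR). The shares of these lists are to be read against 4.29% and 5.64% of all genes called. In M337V against WT 0 genes of the 4 lists passed. Without NTg 6 none of the 4 lists had a called gene in any comparison. The count of called core spliceosome genes in WT against NTg was also 0 with the compared groups alone, under limma-voom, and without M337V 2, M337V 3, M337V 9, WT 8, WT 10, NTg 4 or NTg 5. In M337V against NTg the kinase list had 0 without M337V 1, M337V 2, M337V 3, NTg 4 or NTg 5, the SR-related list without M337V 2, M337V 3 or NTg 4, and the other regulators without M337V 2, M337V 3 or NTg 5. In WT against NTg the SR-related list had 0 with the compared groups alone, under limma-voom and without NTg 4. The SR-related list also lost its call without WT 10 and the other regulators theirs without WT 8, fits that leave a lone WT library. After removal of GC and length trends the SR-related list still had 1 in each comparison with NTg while the others had 0. Some settings raised the counts in M337V against NTg. Core spliceosome genes had 3 lower calls under limma-voom, 2 under DESeq2 and 5 without M337V 7 and 9. The other regulators had 7 higher calls under limma-voom, 7 under DESeq2 and 5 without M337V 7 and 9.

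Some regulators share sequence with other genes, and their counts are less certain. Among 100-base windows of their transcripts, 43.5% for Hnrnpf, 27.9% for Hnrnpm, 27.5% for Hnrnpa3, 25.4% for Hnrnpa1 and 25.3% for Hnrnpk also occur in another annotated gene, which is March2 for Hnrnpm and mainly pseudogenes for the others. For the 7 genes called here the share was 0%.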

How the data were processed

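The authors deposited 1 table of raw read counts (whole numbers, 1 column a library). Per the labels' protocols, RNA from lumbar cord was extracted with Trizol and miRNeasy columns, made into stranded TruSeq libraries and sequenced in pairs over 100 cycles. The submitters' processing notes name STAR 2.4.2a, Salmon 0.8.2, featureCounts, DESeq2 1.14.1, Trimmomatic 0.32, Subread 1.4.6, R 3.3.0, FastQC 0.11.2 and Picard 2.6.0, with no role for each. For the counts, build and annotation were not given in the sources used here. Names, positions, exon lengths and GC content came by Ensembl identifier from GENCODE M21 (GRCm38), which named 21774 of 22024 identifiers.

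Counts were fitted with edgeR 4.0.16 in R 4.3.3. Genes were kept by filterByExpr (minimum count 10, minimum total 15), which dropped 6833 and left 15191. After TMM scaling, glmQLFit and glmQLFTest compared genotypes, with a mean for each and all 10 libraries in the fit, with p-values adjusted by Benjamini-Hochberg over all genes tested and a threshold of 0.05. Scaled CPM use TMM-scaled library sizes, and SE is the standard error of the log2 difference. Intervals for counts cover counting error only. Nothing in the labels ties libraries to litters or batches, and p-values measure the spread between these animals.

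Counts were simulated for 15191 genes with 200 changed. For M337V against NTg the test recovered 82% of genes changed 1.5-fold and 92% changed 2-fold (6 false among 180 calls). For WT against NTg it recovered 63% and 90% (11 among 164), and for M337V against WT 65% and 81% (7 among 153). The changed genes were drawn from well-counted genes, and the simulated libraries had no GC trend and no shift of cell types. The called regulators other than Mbnl3 differed by less than 1.5-fold, which these rates do not cover. Alternatives were RLE size factors, no filter, a mean of at least 1 CPM in every group, the compared groups alone, robust dispersions, offsets that remove trends over GC content and length (lowess span 0.3), limma-voom with quality weights (limma 3.58.1), DESeq2 1.42.0, each library left out, both NTg 4 and WT 8 left out, and M337V 1 to 3 or M337V 7 and 9 left out.

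The genes, the lists and the tests were chosen with earlier results of these data known. Values by library are given for each gene called in any comparison and for the gene of each family with the smallest p in either comparison with NTg; Hnrnpa0, Hnrnpd, Celf1 and Celf2 were added after their values were seen, and other genes are given by group, range or count. From the 4 lists, called genes are named.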

Additional observations from a re-analysis of the deposited data

Results flagged for a closer look

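In the M337V group, the only one with enough libraries to look for a sample far from the others, 1 of the 56 genes had such a library. Hnrnpd, which encodes the AU-rich element binding protein AUF1, stood at 148 scaled CPM (147.9) in M337V 2, below the other M337V libraries at 156 to 159. The WT libraries had 148 and 146 scaled CPM and the NTg libraries 158, 140.3 and 140.3, so the low M337V value lay within the range of the other groups. Chance alone sets a library apart in this way in about 1 in 20 groups.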

How the results depend on the processing

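The count of called regulators moved with the setting. For M337V against NTg it was 5, and it was 8 with the compared groups alone, 10 under limma-voom, 11 under DESeq2, 4 after removal of GC and length trends, 3 without both NTg 4 and WT 8, 1 without M337V 1 to 3 (Hnrnpa0, lower), 11 without M337V 7 and 9, and 0 to 7 on leaving out single libraries, with 0 without NTg 6, 1 without M337V 2, M337V 3 or NTg 4, and 2 without NTg 5. For WT against NTg it was 7, and it was 4 with the compared groups alone, 3 under limma-voom, 10 under DESeq2, 6 after removal of GC and length trends, 2 without both NTg 4 and WT 8, and 1 to 7 on leaving out single libraries, with 1 without WT 10 or NTg 6, 3 without NTg 4, and 4 without WT 8 or NTg 5. For M337V against WT it was 0 under all 21 alternatives. Over all genes, M337V against NTg gave 651 calls and 2 to 1499 under the alternatives (2 without NTg 6, 3 without M337V 1 to 3, 192 after removal of GC and length trends, 1499 under DESeq2), and WT against NTg gave 857 and 44 to 1720 (44 without NTg 6, 429 after removal of GC and length trends, 1720 under DESeq2). The cause of these moves was not tested.

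Alternatives were run gene by gene for 21 of the 56 genes, each in the comparisons it was named for, and there the direction reversed in 5 cases, none past the threshold. The median over the 56 genes in WT against NTg went to −0.049 after removal of GC and length trends and to −0.012 without WT 10, against 0.023. After removal of GC and length trends Khdrbs3 was at −0.013 and Rbfox3 at 0.009 in M337V against NTg, Ptbp2 at −0.042 in WT against NTg, and Mbnl1 at 0.005 in M337V against WT. Mbnl3 in M337V against WT was at −0.046 without M337V 7 and 9. The 4 lists gave 0 to 7 calls under the alternatives. RLE scaling moved a library by at most 0.43% and the median of all genes by less than 0.1 on the log2 scale. No paired analysis was possible because the groups share no animal number. Leaving out 1 of the 2 WT libraries leaves a lone sample, which is then assumed to vary like the other groups. Depth limits Mbnl3, whose counts were 2 to 29 per library.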
